A study of Mus musculus with 5 samples.

Results

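Matrilins are secreted proteins of the extracellular matrix that assemble into oligomers and link collagen fibrils, aggrecan and other matrix components into filamentous networks. Matn1 and Matn3 are made mainly by chondrocytes, Matn4 is made in cartilage and in looser connective tissues, and the remaining family member, Matn2, is found mostly outside cartilage. Changes in human MATN3 cause multiple epiphyseal dysplasia, a disorder of growth cartilage, and in the mouse embryo the cartilage matrilins are deposited in the skeletal anlagen as these chondrify. The 3 genes described here, Matn1, Matn3 and Matn4, were chosen by name, as the rows of the expression table that carry those target names, and they are 3 of the 19346 targets measured.

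RNA was measured in coronal sections of knees from 4 E14.5 mouse embryos by GeoMx digital spatial profiling, in which barcoded probes bound to a section are released by light from drawn regions and sequenced. The control group is labelled Prrx1-Cre and the other group Prrx1-Cre Pdgfra GOF, called GOF below, with 2 animals each. Prrx1-Cre, a recombinase driven in the mesenchyme of the limb bud, is present in both groups. By label the second group adds a GOF (gain-of-function) allele of Pdgfra, which encodes a platelet-derived growth factor receptor, and the labels do not describe its construction. All samples share 1 batch label, the sections were 5 µm thick and formalin-fixed, and regions were chosen under a Sox9 protein stain, so levels of Sox9 and of genes that vary with it are in part set by that choice. The table holds 86 control and 93 GOF regions of 6 types named by tags that the labels do not define. They are border-zone cartilage (60 regions), inter-joint perichondrium (61), inter-joint space (33, also tagged Sox9-low interzone), fusion (17, also tagged Sox9-high interzone), and 1 cartilage and 1 mesenchyme region per animal, written as reference cartilage and reference mesenchyme. Fusion regions were drawn in GOF animals alone. A general interzone tag was carried by all 33 space regions, 11 fusion regions and 7 perichondrium regions. Fits described below as without interzone-tagged regions left out the tagged fusion and perichondrium regions and kept the space regions. The series title concerns how this receptor acts on chondrogenic and fibrous fates during joint development.

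Recovered counts per region summed to between 55471 and 617062, with a median of 217177, and every value below is a scaled signal whose upper quartile is 10.9 in each region. The negative probe, which measures background, had a median signal of 2.81. In control knees the summed chondrocyte and interzone markers followed the tags, and fibrous markers did not follow the perichondrium tag. The summed signal of 6 chondrocyte markers was 4069 and 4493 in the border-zone cartilage of the control animals, 1750 and 1587 in their perichondrium and 725 and 668 in their inter-joint space. The 6 joint interzone markers summed to 662 and 732 in control inter-joint space, 143.6 and 170.98 in control border zone, and 347 and 402 in GOF inter-joint space. In fusion regions they summed to 242 and 254, below the 298 and 311 of GOF perichondrium, so these markers did not follow the Sox9-high interzone tag. The 5 perichondrium and fibrous markers summed to 408 and 483 in control perichondrium, below the 540 and 569 of control inter-joint space, so regions are called perichondrium here by their tag alone. Hypertrophic chondrocyte markers were low in every type of joint region, with a sum between 10.8 and 16.04 over 3 genes. The Pdgfra transcript itself did not pass the test by genotype in any region type (log2 difference 0.31 in border-zone cartilage), and its level does not check the allele. The mCherry/tdTomato target, a red fluorescent reporter, was called higher in GOF in all 5 region types compared, with 14.8 ± 2.15 and 286 ± 57.5 in border-zone cartilage (SD, n = 2), and the labels do not say whether it belongs to the Pdgfra allele.

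The stretch before the start of each gene is shown because the 3 members share the cartilage pattern described below. Matn1 lies on chromosome 4 from 130944385 to 130955476 on the forward strand, Matn3 on chromosome 12 from 8947929 to 8972028 on the forward strand, and Matn4 on chromosome 2 from 164389393 to 164405160 on the reverse strand (RefSeq, GRCm38.p6, which is mm10). Each line gives the 250 bases upstream of the annotated RefSeq start, 5′ to 3′ on the strand of the gene, at chr4:130944135-130944384, chr12:8947679-8947928 and chr2:164405161-164405410. Capitals mark TTGGC, 1 arm of the palindromic site of nuclear factor I (NFI) proteins, searched on both strands.
Matn1 upstream: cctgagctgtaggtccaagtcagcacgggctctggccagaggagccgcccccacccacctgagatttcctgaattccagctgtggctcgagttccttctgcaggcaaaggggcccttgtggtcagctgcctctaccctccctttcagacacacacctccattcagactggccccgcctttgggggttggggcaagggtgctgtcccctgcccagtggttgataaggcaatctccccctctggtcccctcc
Matn3 upstream: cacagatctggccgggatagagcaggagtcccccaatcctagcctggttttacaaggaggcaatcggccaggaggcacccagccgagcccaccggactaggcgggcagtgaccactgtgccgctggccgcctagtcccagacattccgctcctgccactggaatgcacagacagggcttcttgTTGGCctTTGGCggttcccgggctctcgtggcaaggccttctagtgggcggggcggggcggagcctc
Matn4 upstream: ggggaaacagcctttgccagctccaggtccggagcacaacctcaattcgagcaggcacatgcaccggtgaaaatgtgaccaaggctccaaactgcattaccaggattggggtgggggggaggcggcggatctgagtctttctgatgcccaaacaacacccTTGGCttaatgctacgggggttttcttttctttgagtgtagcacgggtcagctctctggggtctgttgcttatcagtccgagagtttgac

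The Matn3 stretch holds TTGGC at positions -67 and -60 from the start, and a further match lies 25 bases into the transcript. The Matn4 stretch holds it at -90, and the Matn1 stretch holds none. TTGGC occurs in 46.7% of the 32851 mouse promoters of the same length (250 bases before to 50 after the start), so a match is common, and it is a description of the letters and not a binding site. AACAAT, a core motif of SOX family factors found in 10.7% of promoters, TATAAA, found in 13.6%, and the full NFI palindrome (TTGGC and GCCAA with 5 bases between), found in 0.0365%, were not found in these windows on either strand. The GC content of the printed stretches lay between 54.4% for Matn4 and 65.2% for Matn3, beside a median of 52.4% over all promoters. A second annotated start of Matn4 held none of the motifs.

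In control knees all 3 matrilins were highest in the cartilage regions and lowest in mesenchyme, and each was called higher in border-zone cartilage than in inter-joint space and than in perichondrium. Matn1, the matrilin first found in cartilage, had mean signals of 348 and 361 in the border zone of control replicates 1 and 2, 87.8 and 73.3 in perichondrium, and 53.8 and 45.9 in inter-joint space. Matn3 read 93.6 and 105.6 in the border zone, 33.5 and 24.9 in perichondrium and 16.3 and 15.5 in inter-joint space. Matn4 read 364 and 392, 138.97 and 117.7, and 47.2 and 47.7 in the same types. For every member the animals of these types did not overlap, and the order was border zone, perichondrium, space. Signals of different targets come from different probes, so the members are compared here by their differences and not by their levels.

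The border zone exceeded the inter-joint space of controls by 8.14-fold for Matn4 (log2 difference 3.02, SE 0.27, limma adjusted p = 6.97e-07), by 6.43-fold for Matn1 (2.69, SE 0.36, adjusted p = 0.000123) and by 5.74-fold for Matn3 (2.52, SE 0.22, adjusted p = 4.75e-07). In that comparison 1.3% of all targets were called and 0.548% called higher in the border zone, and the space regions were drawn as Sox9-low, so the choice of regions enters this difference. Against perichondrium the border zone was higher by 2.07 for Matn1, 1.77 for Matn3 and 1.61 for Matn4 on the log2 scale (adjusted p = 0.0085, 0.000543 and 0.0085, with 0.186% of targets called and 0.093% called higher). The Matn1 call against space was lost when either control animal was left out (2.80 without control replicate 1, adjusted p = 0.125, and 2.57 without control replicate 2, adjusted p = 0.184), and so were the calls of all 3 members against perichondrium, where the adjusted p then lay between 0.224 and 0.99998. Perichondrium against space did not pass for any member, at 0.61, 0.75 and 1.41 for Matn1, Matn3 and Matn4, where 0% of targets were called (218 targets had an unadjusted limma p below 0.05). With the joint region types fitted without the references, 1.6% of targets were called there and all 3 members passed (adjusted p = 0.0358, 0.000345 and 3.12e-07).

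Of the 3 members Matn1 alone was called higher in reference cartilage, a single region per animal, than in the border zone of controls. Matn1 read 1128 and 1216 there in the controls, above every border-zone region of either control animal, whose highest value was 687. The difference from border-zone cartilage was 3.68-fold (log2 difference 1.88, SE 0.36, limma adjusted p = 0.0159, with 0.734% of targets called and 0.264% called higher). Matn3 read 108.8 and 89.4 in reference cartilage, and Matn4 575 and 400. Their differences from the border zone were 0.12 and 0.38 with limma adjusted p values of 0.853 and 0.558. The animals of these types overlapped for Matn3. For Matn4 they did not overlap, as both border-zone means (364 and 392) lay below both reference values, the same direction as for Matn1. The Matn1 call was lost without control replicate 1 (1.91, adjusted p = 0.231) and without control replicate 2 (1.85, adjusted p = 0.201), and whether Matn1 differs in this from the other members was not tested. Of the 13 measured matrix partners, 4 were called higher in reference cartilage, namely the collagen chains Col2a1 (1.25), Col11a2 (1.25) and Col9a1 (1.34) and the pentameric matrix glycoprotein Comp (1.25), and none lower.

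In reference mesenchyme, where muscle markers summed to between 532 and 967, the matrilins were at their lowest. Matn3 read 4.35 and 5.44 in controls and 4.89 and 7.25 in GOF animals, and 1 of the 4 mesenchyme regions exceeded 3 times its own negative probe. Matn1 read 10.9 and 15.2 in controls and 18.5 and 5.44 in GOF animals, and Matn4 read 11.97 and 15.8, and 10.3 and 9.06. No member passed by genotype there, where 0.853% of targets were called. Matn1 and Matn4 exceeded that multiple in every region of the study, and Matn3 exceeded it in all 60 border-zone regions, 60 of 61 perichondrium regions, 28 of 33 space regions and 16 of 17 fusion regions. Differences of Matn3 in inter-joint space, where its recovered count per region had animal medians between 11.5 and 19 counts, are measured with less precision than those in the border zone, where the medians lay between 27.5 and 78.5.

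**Figure D1:**
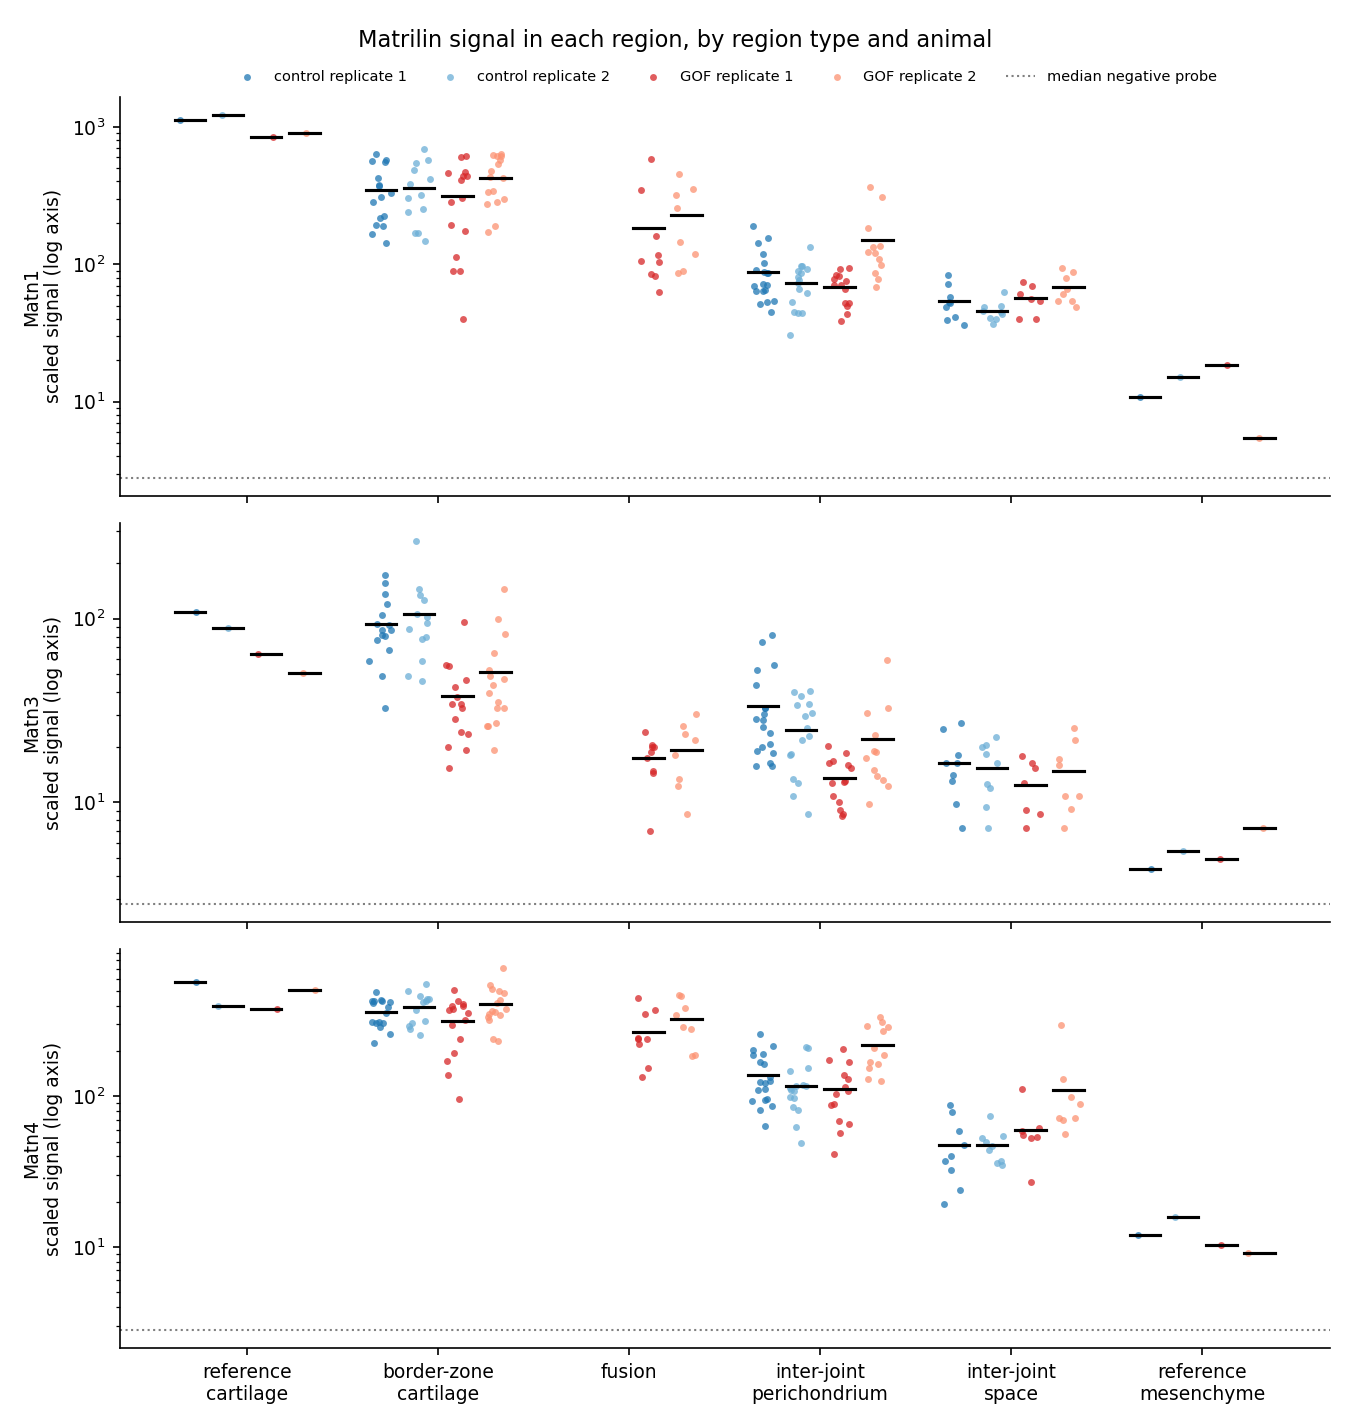
Scaled signal of Matn1, Matn3 and Matn4 (log axes) in each region of interest, 1 point per region, by region type and animal, with black bars at the mean of each animal and a dotted line at the median negative probe (2.81). All 3 genes read higher in both cartilage types than in mesenchyme. The Matn3 means of the border zone are 37.8 and 51.5 in GOF animals against 93.6 and 105.6 in controls, while the Matn1 and Matn4 means there overlap between genotypes.

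In GOF knees the animal means kept the order of border zone, perichondrium and space. The border zone was called higher than inter-joint space for all 3 members, by 2.34 for Matn1 (SE 0.36, limma adjusted p = 0.00155), 1.53 for Matn3 (SE 0.22, adjusted p = 0.00114) and 2.19 for Matn4 (SE 0.27, adjusted p = 0.000216) on the log2 scale, where 0.501% of targets were called and 0.32% called higher. The Matn3 call was lost without GOF replicate 1 (1.63, adjusted p = 0.0707) and without GOF replicate 2 (1.43, adjusted p = 0.196). Border zone against perichondrium, with 0.0103% of targets called, gave 1.73, 1.23 and 1.21 for Matn1, Matn3 and Matn4 and passed for none of them (adjusted p = 0.124, 0.055 and 0.246). It passed for all 3 when the reference types were left out of the fit (with 1.86% of targets called) and by edgeR on recovered counts (adjusted p = 4.56e-05, 4.56e-05 and 0.0102, with 1.06% called). Reference cartilage exceeded the GOF border zone by 1.48 for Matn1, 0.55 for Matn3 and 0.38 for Matn4, none past the threshold (0.15% called). Perichondrium against space gave 0.61, 0.30 and 0.98, and here too 0% were called (94 had an unadjusted p below 0.05). GOF replicate 2 stood above GOF replicate 1 in perichondrium for each member, at 150.9 against 67.9 for Matn1, 22.2 against 13.5 for Matn3 and 220.3 against 111.2 for Matn4. The summed chondrocyte markers of those regions were 2064 and 1050, and the part of this in the matrilin values was not tested.

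By genotype, Matn3 read lower in both GOF animals than in both controls in border-zone cartilage, perichondrium, inter-joint space and reference cartilage, with the largest difference in the border zone. Full separation of 2 animals from 2 has an exact two-sided permutation p of 0.333, here and below. The share of all targets that separate in this way was not counted. These region types come from the same animals, so they are not independent of each other. Its border-zone means were 93.6 for control replicate 1, 105.6 for control replicate 2, 37.8 for GOF replicate 1 and 51.5 for GOF replicate 2. The animals did not overlap: both GOF means lay below both control means. At the level of regions, which are not replicates, 28 of the 31 GOF border-zone regions lay below the control median of 88.4, and 10 lay below the lowest control region, at 32.6. The group means were 99.6 ± 8.48 and 44.6 ± 9.70 (SD, n = 2), a 2.30-fold difference (log2 -1.20, SE 0.22, 95% interval to -0.74). The limma adjusted p was 0.169 (unadjusted p = 2.62e-05), so the difference did not pass over all targets, of which 0.00517% were called.

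The Matn3 difference in the border zone passed in 4 of 12 other settings. These were a pseudocount of 5 (-1.12, adjusted p = 0.0352, with 0.0155% of targets called), the joint region types alone (-1.20, adjusted p = 7.57e-07, with 0.212% called), edgeR on recovered counts (-1.16, adjusted p = 0.000119, with 0.16% called) and DESeq2 (-1.15, adjusted p = 0.000506, with 0.253% called). The value stayed between -1.39 and -1.01 when each animal was left out in turn, and no such fit called it. A library can hold fewer cells that make a transcript or less of it per cell, and these cannot be told apart in pooled regions. The summed chondrocyte markers of the border zone, 4069 and 4493 in controls and 3437 and 4390 in GOF animals, overlapped between genotypes. Taken singly, all 6 of these markers had values below 0 there (median -0.26, none called), as they did in perichondrium (median -0.13) and reference cartilage (-0.27), and their part in the Matn3 values was not tested.

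Matn1 and Matn4 did not separate the genotypes in the border zone. Matn1 read 348 and 361 in controls and 313 and 425 in GOF animals (log2 difference -0.04, SE 0.36), and Matn4 read 364 and 392 against 315 and 411 (-0.13, SE 0.28). For both genes the GOF animals lay on either side of the controls. The 95% intervals of these differences ran from -0.79 to 0.71 for Matn1 and from -0.71 to 0.45 for Matn4, and differences inside those bounds cannot be told from 0 with 2 animals per group.

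In inter-joint perichondrium Matn3 read 33.5 and 24.9 in controls and 13.5 and 22.2 in GOF animals, again without overlap. Of 26 GOF regions, 23 lay below the control median of 25.8. The difference was -0.66 (SE 0.22, limma adjusted p above 0.9999, with 0.0155% of targets called), and it passed with the joint region types alone (adjusted p = 0.00644, with 1.03% called) and by edgeR (-0.73, adjusted p = 0.0267, with 1.18% called), not by DESeq2. Without GOF replicate 1 it was -0.38 and without GOF replicate 2 it was -0.93. Matn1 read 87.8 and 73.3 against 67.9 and 150.9 (0.31, SE 0.36), and Matn4 138.97 and 117.7 against 111.2 and 220.3 (0.28, SE 0.28), with the controls inside the range of the GOF animals for both.

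In inter-joint space both GOF animals read higher than both controls for Matn4 and Matn1 and lower for Matn3, and none of these differences passed over all targets. As above, full separation of 2 animals from 2 has an exact two-sided permutation p of 0.333 and was not counted over all targets. Matn4 read 47.2 and 47.7 in controls and 60.1 and 110.5 in GOF animals, and 14 of 15 GOF regions lay above the control median of 45.4 and 5 above the highest control region, at 87.7. A single GOF region of replicate 2 reached 296, and the difference was 0.71 (SE 0.28, limma adjusted p above 0.999, with 0.103% of targets called), against 0.33 without GOF replicate 2 and 1.09 without GOF replicate 1. It passed with the joint region types alone (adjusted p = 0.0176, with 2.69% called) and in none of the other 11 settings that kept all animals. Matn1 read 53.8 and 45.9 against 56.4 and 68.3 (0.31, SE 0.36), and Matn3 16.3 and 15.5 against 12.5 and 14.8 (-0.21, SE 0.22). The summed chondrocyte markers there were 725 and 668 in controls and 726 and 921 in GOF animals. The 6 interzone markers had a lower sum in GOF (662 and 732 against 347 and 402). Taken singly, 4 of the 6 had values below 0, with 1 called lower, and 2 had values above 0. The part of either marker set in the Matn4 values was not tested.

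In reference cartilage Matn3 read 108.8 and 89.4 in controls and 64.5 and 50.8 in GOF animals, 1 region each. It was called lower in GOF (-0.78, SE 0.22, limma adjusted p = 0.0404), in a comparison that called 7.35% of all targets, 4.24% as lower and 3.11% as higher. The fit pools the SE of a target over all region types. It therefore does not reflect that this and the other reference comparisons rest on 1 region per animal. The call was lost with quantile normalization (-0.60, adjusted p = 0.119), with the negative probe subtracted (-0.80, adjusted p = 0.132), with a pseudocount of 0.1 (-0.78, adjusted p = 0.0519), without interzone-tagged regions (adjusted p = 0.0768), and by edgeR (-0.67, adjusted p = 0.959) and DESeq2 (-0.69, adjusted p = 0.966). It was also lost without control replicate 1 (-0.64, adjusted p = 0.208), without control replicate 2 (-0.91, adjusted p = 0.0650) and without GOF replicate 2 (-0.61, adjusted p = 0.206). Matn1 read 1128 and 1216 against 845 and 894 (-0.43, adjusted p = 0.496), without overlap, and Matn4 575 and 400 against 381 and 508 (-0.13, adjusted p = 0.822), with overlap.

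No member passed a test of whether its genotype difference varied among the joint region types, where 0% of targets were called in each comparison (120, 22 and 21 targets had an unadjusted limma p below 0.05 for border against space, border against perichondrium and space against perichondrium). The Matn3 difference was more negative in the border zone than in inter-joint space (log2 -0.99, SE 0.31, adjusted p above 0.9999), and this passed with the joint region types alone (adjusted p = 0.00125, with 0.765% of targets called) and not by edgeR or DESeq2. For Matn4 the same quantity was -0.84 (SE 0.39), and for Matn1 it was -0.35 (SE 0.50).

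**Figure D2:**
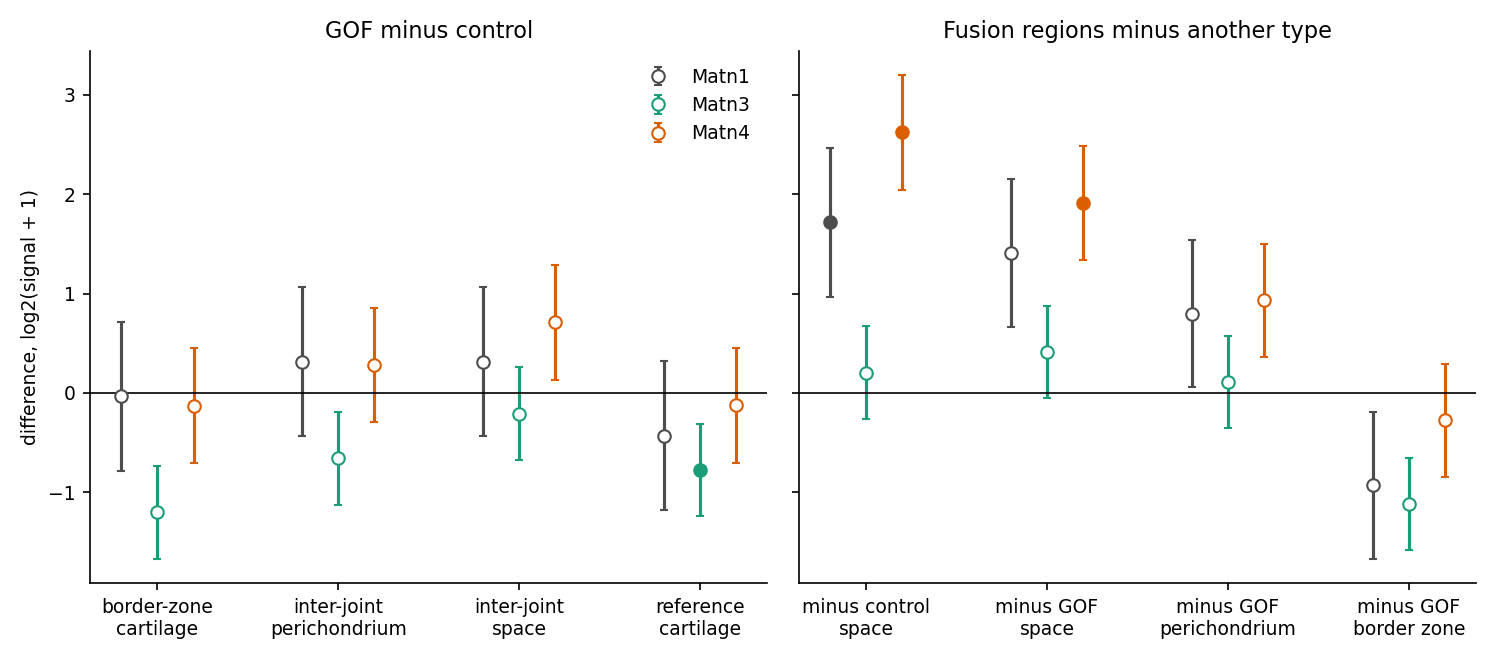
Differences of log2(signal + 1) for Matn1, Matn3 and Matn4, GOF minus control within region types (left) and fusion regions minus another type (right), from the limma fit, with bars at the 95% interval and filled points where the adjusted p is below 0.05. Matn3 is at -1.20 in the border zone with Matn1 and Matn4 near 0, and in fusion regions Matn4 is 1.91 above GOF space while Matn3 is 0.41 above it.

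The ratio of 2 members within the same regions shows how they moved relative to each other, and it is compared only between animals. In border-zone cartilage the log2 ratio of Matn3 to Matn4 was -2.03 and -1.998 in control replicates 1 and 2, against -3.05 and -3.12 in GOF replicates 1 and 2, a difference of -1.07 (control SD 0.02, GOF SD 0.05). It was lower in both GOF animals than in both controls in perichondrium (difference -0.94), inter-joint space (-0.92) and reference cartilage (-0.65) as well. The exact two-sided permutation p was 0.333 in each of these types, the smallest that 2 animals against 2 can give, so no ratio can pass a threshold of 0.05, and with 15 such tests adjustment can only raise it. In reference mesenchyme, where Matn3 was near background, the ratio was higher in GOF (0.71).

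The log2 ratio of Matn1 to Matn4 in the border zone was -0.18 and -0.24 in controls and -0.24 and 0.00 in GOF animals (difference 0.09, exact p = 0.667), and in perichondrium the difference was 0.03, with control and GOF means of -0.67 and -0.64 and no overlap (exact p = 0.333). In inter-joint space and reference cartilage the differences of this ratio were -0.40 and -0.30, and the animals overlapped (exact p = 0.667 for both). The ratio of Matn1 to Matn3 was higher in GOF by 1.17 in the border zone, 0.97 in perichondrium and 0.52 in inter-joint space, each without overlap (exact p = 0.333), and by 0.35 in reference cartilage, with overlap (exact p = 0.667). Fusion regions gave Matn3 to Matn4 ratios of -3.82 and -4.03, below both animals of every other GOF and control type, and Matn1 to Matn3 ratios of 2.97 and 3.34.

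**Figure D3:**
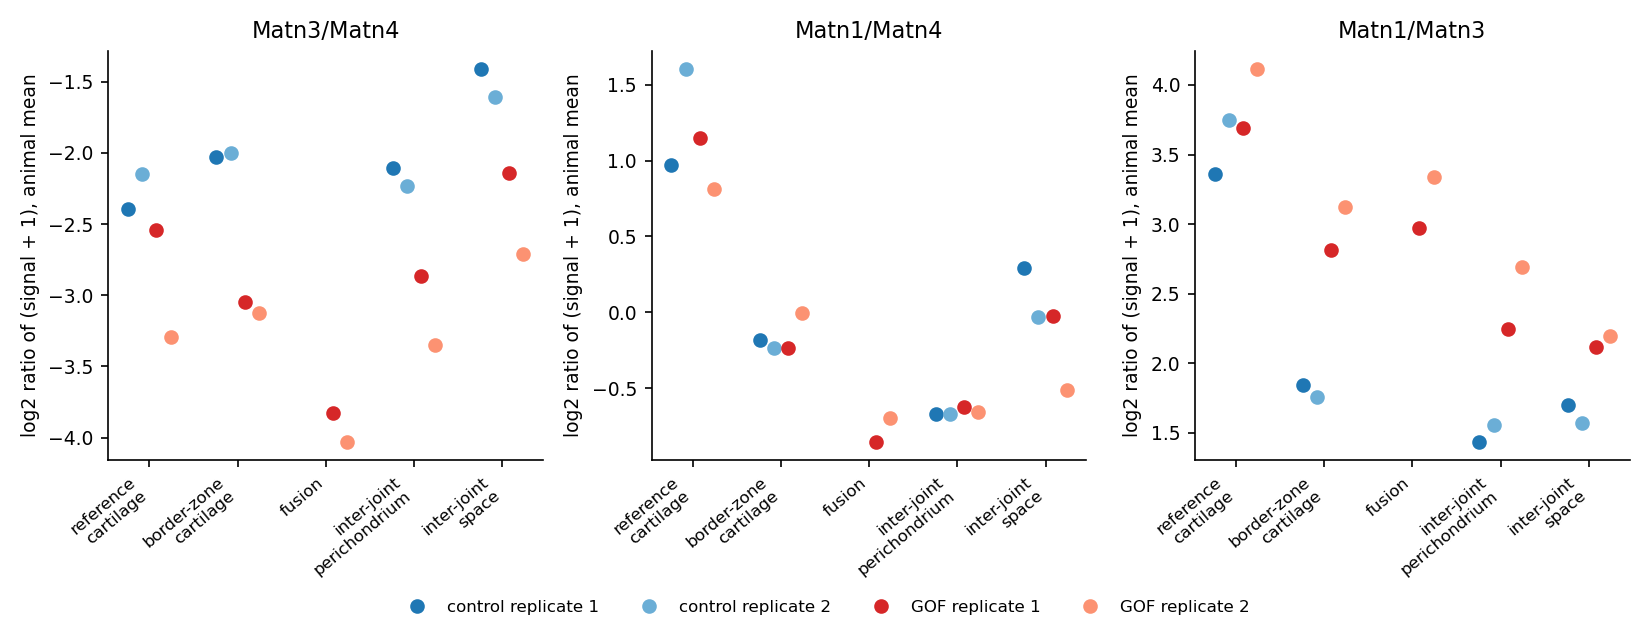
Log2 ratios of (signal + 1) between pairs of matrilins, 1 point per animal mean, by region type, with controls in blue and GOF animals in red. In every joint region type drawn in both genotypes the Matn3 to Matn4 ratio of both GOF animals is below that of both controls, with a difference of -1.07 in the border zone, while the Matn1 to Matn4 ratio overlaps there.

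Fusion regions, tagged as Sox9-high and present in GOF knees alone, had Matn4 signals in the range of GOF border-zone cartilage, Matn1 signals that averaged between border zone and space and varied with a further region tag, and Matn3 signals that averaged below the border zone. Matn4 read 268 and 327 in the fusion regions of GOF replicates 1 and 2, against 60.1 and 110.5 in GOF inter-joint space and 315 and 411 in GOF border-zone cartilage. All 17 fusion regions exceeded the highest control space region (87.7), with a fusion median of 279, and 7 of the 17 exceeded the highest GOF space region (296). It was called higher than in GOF space by 3.76-fold (1.91, SE 0.27, limma adjusted p = 0.00345, with 0.222% of targets called and 0.176% called higher) and than in control space by 6.15-fold (2.62, SE 0.28, adjusted p = 2.41e-05, with 0.729% called and 0.408% called higher). The call against GOF space was lost without control replicate 1 (1.91, adjusted p = 0.0781), without control replicate 2 (1.91, adjusted p = 0.0743) and without GOF replicate 1 (1.68, adjusted p = 0.193). Against the GOF border zone the difference was -0.28 (SE 0.27, with 0.0103% called) and the animals overlapped.

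Matn1 read 183 and 228 in fusion regions, below the GOF border zone (313 and 425) and above GOF space (56.4 and 68.3), without overlap on either side. It was called higher than in control space (1.72, SE 0.36, adjusted p = 0.0210), a call lost without control replicate 1 (1.81, adjusted p = 0.545) and without control replicate 2 (1.62, adjusted p = 0.760). Against GOF space it was 1.41 higher with a limma adjusted p of 0.182. That difference passed in 5 of the 12 other settings, including the joint region types alone (adjusted p = 2.9e-08, with 4.57% called) and edgeR (1.86, adjusted p = 2.4e-06, with 2.17% called). Another of the 5 was the limma fit without interzone-tagged regions (2.30, adjusted p = 0.000588, with 0.801% called). There, untagged fusion regions were compared with space regions that all carry the tag. Single fusion regions spread from 62.9 to 583 for Matn1, and the difference from the border zone was -0.93 (SE 0.36), which passed with the joint region types alone (adjusted p = 0.000331, with 1.19% called) and in no other setting. Without the regions that carry the interzone tag this difference was -0.04, so the placement of Matn1 below the border zone rests on those regions.

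Matn3 read 17.5 and 19.3 in fusion regions, against 12.5 and 14.8 in GOF space and 37.8 and 51.5 in the GOF border zone. All 17 fusion regions lay below the lowest control border-zone region (32.6), a comparison that also crosses genotypes. Within GOF knees none exceeded the median of the border zone (35.4), and 6 of the 17 lay below its lowest region (15.4). The difference from GOF space was 0.41 (SE 0.22, 95% interval to 0.87) and from control space 0.20 (SE 0.22, interval to 0.67), and neither passed in any setting tried. From the GOF border zone it was -1.12 (SE 0.22, limma adjusted p = 0.199), which passed with the joint region types alone (adjusted p = 3.96e-07, with 1.19% of targets called), by edgeR (-1.29, adjusted p = 7.45e-05, with 0.372% called), by DESeq2, and without interzone-tagged regions (-1.29, adjusted p = 0.0369, with 0.15% called). Against GOF perichondrium, where 0% of targets were called (204 had an unadjusted p below 0.05), the differences were 0.80 for Matn1, 0.11 for Matn3 and 0.93 for Matn4, of which Matn1 and Matn4 passed with the joint region types alone (adjusted p = 0.00278 and 0.000539, with 1.47% called). These comparisons share the fusion regions, so they are not independent of each other.

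Of the 17 fusion regions, 11 also carry a general interzone tag, and within each animal Matn1 and Matn4 averaged lower in these. Matn1 averaged 363 and 319 in the untagged fusion regions of GOF replicates 1 and 2 and 92.5 and 173.7 in the tagged ones. Matn4 averaged 346 and 399 without the tag and 229 and 283 with it, and Col2a1, the main collagen of cartilage, 3573 and 3403 without and 1514 and 2184 with it. Gdf5, a signal of the BMP family made by joint progenitors, averaged higher with the tag, at 4.78 and 7.64 without the tag and 20.1 and 28.6 with it. Matn3 had no common direction: it read 20.6 without and 15.96 with the tag in GOF replicate 1, and 11.5 without and 24.003 with it in GOF replicate 2. With 3 untagged regions per animal these values are given without a test. Across the fusion regions of 1 animal (9 and 8 regions) Matn4 and Gdf5 had Pearson correlations of -0.88 and -0.89, Matn1 and Col2a1 of 0.88 and 0.95, and Matn3 and Col2a1 of 0.37 and -0.32, where all points share an animal and a scaling.

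Within border-zone cartilage the members varied together from region to region. Across the 13 to 16 border-zone regions of an animal the Pearson correlation of Matn1 with Matn4 had a median of 0.80 over the 4 animals (0.70 to 0.93), Matn1 with Matn3 of 0.73 (0.47 to 0.82), and Matn3 with Matn4 of 0.66 (0.51 to 0.74). Their median correlations with Col2a1 in the same regions were similar, at 0.79 for Matn1, 0.61 for Matn3 and 0.74 for Matn4. The part of cartilage content in these values was not tested. The correlations of Matn3 ran from -0.14 to 0.85 with Matn4 and from 0.10 to 0.53 with Matn1 in inter-joint space, and from 0.00 to 0.79 with Matn4 and from -0.15 to 0.84 with Matn1 in perichondrium. Regions of 1 animal share their source, and these values are descriptions.

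**Figure D4:**
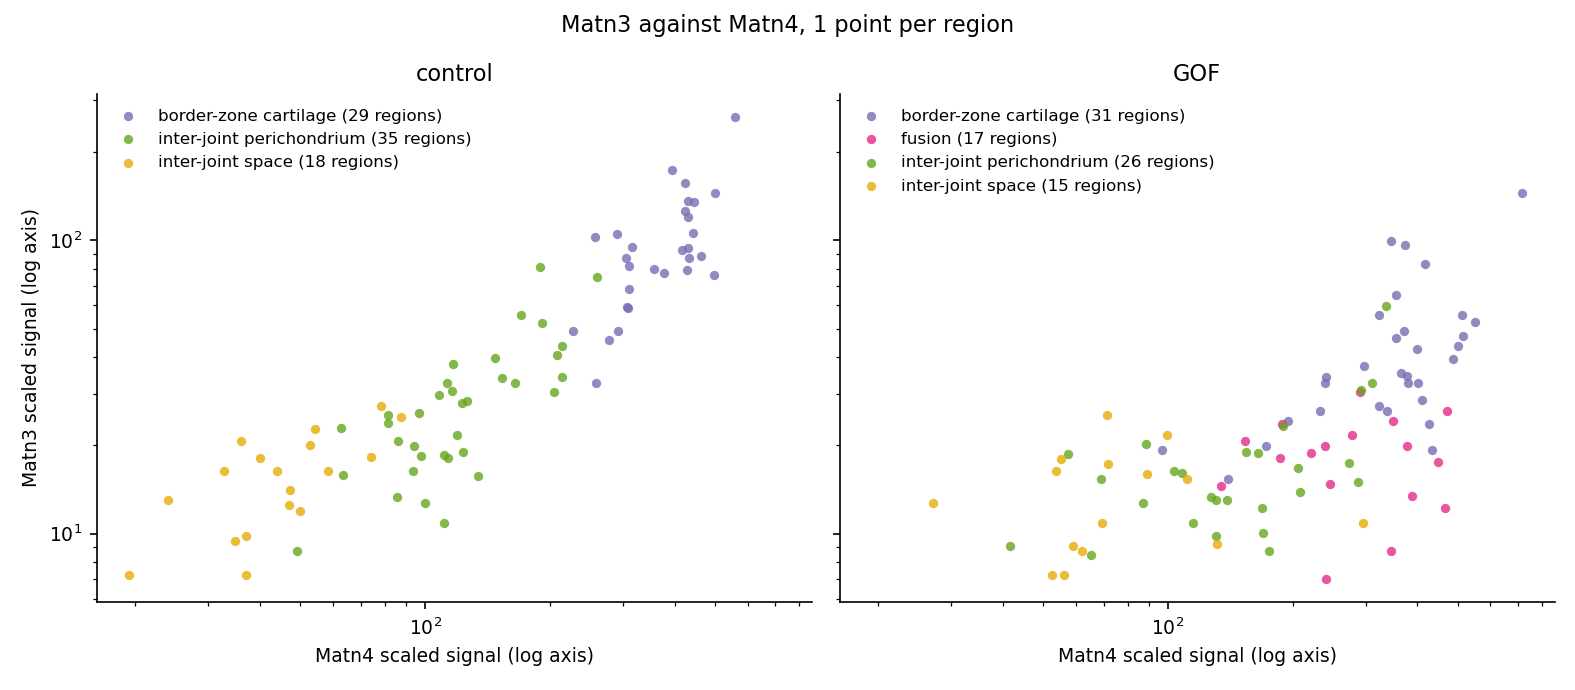
Matn3 against Matn4 scaled signal (log axes), 1 point per region, in control (left) and GOF (right) knees, coloured by region type. In controls the types run along a single band up to a Matn3 signal of 264, and in GOF the fusion regions sit at Matn4 signals of 134.2 to 471 with Matn3 signals of 6.99 to 30.5, below most of the border zone.

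The family member outside the 3, Matn2, was low in every type of joint region. Its mean signal was 6.74 ± 0.891 in control border-zone cartilage and 13.04 ± 2.56 in control inter-joint space (SD, n = 2), a few times background, and the border zone minus space difference was -0.81 (SE 0.24, limma adjusted p = 0.162). By genotype Matn2 gave -0.10 in the border zone, -0.17 in perichondrium and -0.51 in inter-joint space, none past the threshold. Fusion minus GOF space was -0.24.

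Matn2 and 12 known matrix partners of the matrilins form a list of 13 genes, all measured, of which most were higher where Matn1 and Matn4 were. In control knees 9 of the 13 were called higher in border zone than in inter-joint space and none lower, where 0.548% of all targets were called higher, with a list median of 2.14 beside -0.03 over all targets. They were the collagen II chain Col2a1 (2.83), the collagen IX chains Col9a1 (2.80), Col9a2 (2.14) and Col9a3 (2.53), the collagen XI chains Col11a1 (2.06) and Col11a2 (2.61), the proteoglycan core protein Acan (2.31), the link protein Hapln1 (2.91) and Comp (1.59). The small proteoglycans Dcn, Bgn and Fmod, which bind collagen fibrils, and Matn2 did not pass. Against control perichondrium 5 of the 13 were called higher and none lower, where 0.093% of all targets were called higher.

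By genotype none of the 13 was called in any joint region type. Over all targets 0.00517% were called in the border zone, 0.0155% in perichondrium and 0.103% in inter-joint space, so few targets of any kind were called. The 1 target called in the border zone was the mCherry/tdTomato reporter. The list medians were -0.21, -0.17 and 0.01 in these types, beside -0.04, -0.05 and -0.04 over all targets. In border-zone cartilage, where Matn3 was at -1.20, the partner values were -0.66 for Col9a1 (SE 0.30), -0.30 for Acan (SE 0.29), -0.22 for Hapln1, -0.16 for Col2a1 and 0.29 for Comp (SE 0.29). Col9a1 read 123.7 ± 15.5 in controls and 83.1 ± 18.8 in GOF animals. Of 17 other measured chondrocyte genes none was called there either, with a median of -0.25, and 13 of them had values below 0. Chad, a leucine-rich matrix protein among the genes most like Matn3 over the averages, was at -0.72 (SE 0.20, limma adjusted p above 0.999). Those averages include the border-zone values of both genotypes, so the Chad value is not independent of its likeness to Matn3.

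In fusion regions 8 of the 13 were called higher than in GOF space and none lower, where 0.176% of all targets were called higher, with a list median of 1.43 beside -0.01 over all targets. They included Col2a1 (1.92), Col9a3 (2.18), Acan (1.68), Col9a1 (1.44) and Hapln1 (1.33), beside 1.91 for Matn4, 1.41 for Matn1 and 0.41 for Matn3. Comp was at 0.71 and did not pass. Against the GOF border zone none of the 13 was called, and the median was -0.34. The regions were tagged by their Sox9 stain, and all 6 chondrocyte markers were called higher in fusion than in GOF space, where 0.176% of targets were. The 5 perichondrium and fibrous markers summed to 566 and 569 in fusion regions, 256 and 397 in GOF space and 241 and 264 in the GOF border zone. All 5 had values above 0 against the GOF border zone, and Postn, a matricellular protein of fibrous tissue, was called (1.82, limma adjusted p = 0.0458, with 0.0103% of targets called); their part in the matrilin values of fusion regions was not tested.

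**Figure D5:**
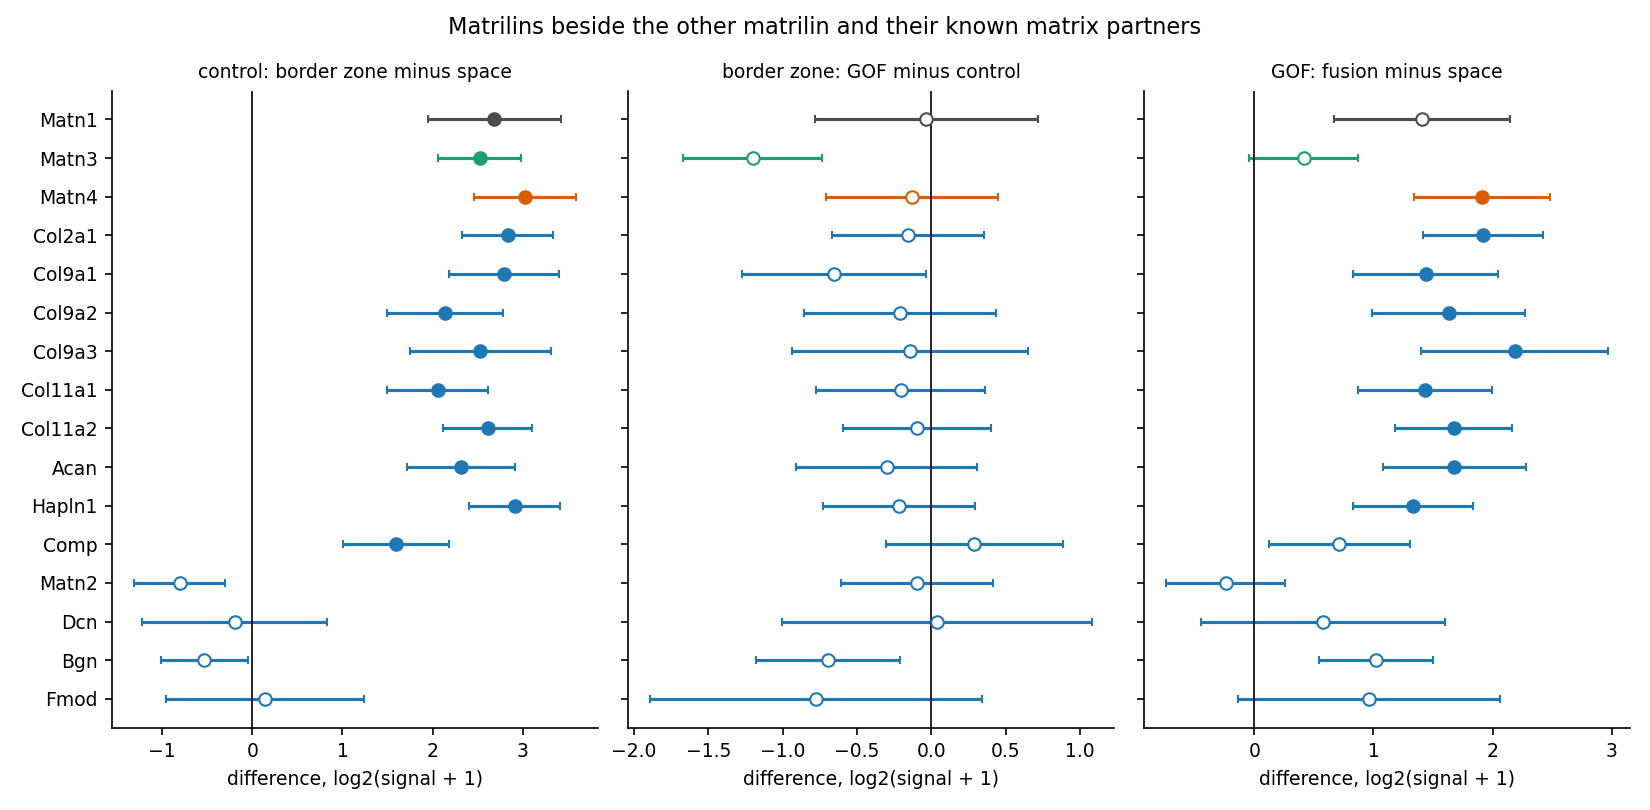
Differences of log2(signal + 1) for Matn1, Matn3, Matn4 and the 13 genes of the partner list in controls between border zone and space (left), by genotype in the border zone (middle) and between fusion regions and space in GOF knees (right), with bars at the 95% interval and filled points where the limma adjusted p is below 0.05. Matn3 is the lowest point of the middle panel at -1.20 (not filled), and in the right panel it is at 0.41 beside 1.92 for Col2a1.

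Calls among chondrocyte transcription factors and growth plate genes are given beside the share of all targets called. Of 10 factors measured, Sox9, the chondrocyte master factor by which regions were chosen, was called higher in control border zone than in space (1.61), and Nfia, an NFI family factor, lower (-1.26). In that comparison 1.3% of all targets were called. Nfib, another NFI factor, and Nfia were called lower in reference cartilage than in the border zone of controls (-1.89 and -1.53), where 0.734% were called. By genotype in the joint region types none of the 10 was called, and Sox9 was at 0.00 in the border zone (SE 0.26). The share of all targets called there was 0.00517% in the border zone, 0.0155% in perichondrium and 0.103% in space. In reference cartilage Nfia was called higher in GOF (1.02, limma adjusted p = 0.0208, with 7.35% of targets called). In reference mesenchyme 2 of the 10 were called lower in GOF, where 0.853% of targets were called. Among 12 growth plate genes, the receptor Fgfr3 was called higher in control border zone than in space (1.64) and than in perichondrium (1.13, with 0.186% of targets called). The prehypertrophic signal Ihh and the hypertrophic collagen Col10a1 were not called (0.23 and -0.05 against space). By genotype in the border zone Ihh was at -0.35 and Col10a1 at -0.05, and none of the 12 was called in any region type. Adamts4 and Adamts5, proteases that can cut matrilins, were not called by genotype in the joint region types, with values of -0.02 and 0.10 in the border zone.

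The genes whose profile over the 22 animal-by-type averages was most like each member differed among the members. Among 4737 targets with a median signal of at least 10, Matn1 was most like Col11a2 (Pearson r = 0.99), Col2a1 (0.98), the secreted EGF-domain protein Scube3 (0.98), Col9a2 (0.98) and Hapln1 (0.98). Matn4 was most like the ubiquitin ligase Wwp2 (0.99), Col2a1 (0.98), Slc35e3 (0.98), Col9a3 (0.98) and Acan (0.98). For Matn3 the list was the lysyl oxidase Loxl3 (0.96), the sulfate donor synthase Papss2 (0.95), Chad (0.95), Fgfr3 (0.94) and Prelp, a leucine-rich proteoglycan (0.94). Matn1 and Matn4 correlated at 0.95 with each other, Matn1 and Matn3 at 0.92, and Matn3 and Matn4 at 0.89, and all points share the scaling and the same ordering of region types.

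Set in order of the animal means, the 11 combinations of genotype and region type ran from reference cartilage of the controls (1172 ± 62.02, SD, n = 2) to reference mesenchyme of the GOF animals (11.97 ± 9.23) for Matn1. Its neighbouring GOF and control border zones overlapped, as did the perichondria. For Matn4 the order ran from control reference cartilage (488 ± 123.7) to GOF reference mesenchyme (9.70 ± 0.897), and the first 5 places, down to fusion (297 ± 41.5), each overlapped the next. For Matn3 the control border zone (99.6 ± 8.48) and control reference cartilage (99.1 ± 13.7) led and overlapped, and the GOF reference cartilage (57.6 ± 9.71) and border zone (44.6 ± 9.70) followed, apart from the controls. Below them stood control perichondrium (29.2 ± 6.03), fusion (18.4 ± 1.28), GOF perichondrium (17.8 ± 6.12), control space (15.9 ± 0.618) and GOF space (13.7 ± 1.64), in which fusion overlapped GOF perichondrium and the latter overlapped control space.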

How the data were processed

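Signal values per target and region were deposited by the authors after scaling counts to a common upper quartile, per the file headers. The submitters' processing notes name Seurat and mm10 with no role, and neither the labels nor the headers state the counting pipeline. A value was a whole multiple of its region's step in 99.97% of cases (tolerance 0.01 of a count), which gave recovered counts. Between 55471 and 617062 counts per region limit precision. Because animals are the replicates, log2(signal + 1) was averaged per animal and region type (22 averages). Differences were tested by limma 3.58.1 under R 4.3.3, with lmFit and eBayes (trend) and the animal as a random block (correlation 0.0258), with Benjamini-Hochberg adjustment over 19346 targets per contrast and a threshold of 0.05. Folds are on that scale and understate low targets. Alternatives changed the pseudocount (0.1, 5), a filter at 2 times background (10663 targets), blocking, region types, normalization, background, averaging, tagged regions and animals, or used edgeR 4.0.16 and DESeq2 1.42.0 on counts summed per animal and type. The limma fit was also run on simulated data with known border-zone changes. No effect was shared there by the region types of an animal, so the animal block was not tested. Ratios of members were compared by exact permutation over animals. The text names the 3 members, the 5 targets most like each by Pearson correlation, list members called in the contrast described, and Matn2, Comp, Col9a1, Acan, Sox9, Ihh and Col10a1 in any case; Gdf5, Chad and other list members were added where described. Members and lists were chosen with earlier results of these data known. Replicates are biological replicates by label. The no-template control was not analysed here.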

Additional observations from a re-analysis of the deposited data

How the results depend on the processing

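Over 30 main results (genotype, its variation among joint region types, and fusion comparisons for 3 genes) and 480 alternative values, 452 left the call as it was, 23 newly passed, 5 no longer passed, and no called value changed sign. Values that newly passed came from the joint region types alone for Matn1 in fusion against GOF space (1.41), GOF border (-0.93) and GOF perichondrium (0.80), for Matn3 in the border zone (-1.20) and perichondrium (-0.66), in border minus space effects (-0.99) and in fusion against border (-1.12), and for Matn4 in space (0.71) and in fusion against perichondrium (0.93). That setting has 7 residual degrees of freedom against 11 and a prior of 33.2 against 9.95, since the single-region reference types are gone. Without interzone-tagged fusion and perichondrium regions, with the tagged space regions kept, Matn1 fusion minus space was 2.30. In that setting Matn1 and Matn4 fusion minus perichondrium were 1.70 and 1.33, and Matn3 fusion minus border was -1.29. Fusion minus border moved from -0.93 to -0.04 for Matn1 and from -0.28 to 0.11 for Matn4, neither of them called there. With edgeR, Matn1 fusion minus space was 1.86 and minus perichondrium 0.97, and Matn3 was -1.16 in the border zone, -0.73 in perichondrium and -1.29 for fusion minus border; DESeq2 gave 1.87 for Matn1 fusion minus space and, for Matn3, -1.15 and -1.29. A pseudocount of 5 gave -1.12 for Matn3 in the border zone, and averaging before the log 1.70 for Matn1 fusion minus space. The cause of each was not tested. Leaving out each animal ranged from 1.49 to 1.95 for Matn1 fusion minus control space and from 1.68 to 2.14 for Matn4 fusion minus GOF space, and such fits leave 1 animal in a group, assumed to vary like the others. With the replicate number as a block, the Matn3 border difference had an adjusted p of 0.185 and Matn4 fusion minus GOF space 0.00258, and no call among the main results changed; deviations of same-numbered animals correlated at -0.01 over 2 pairs, so the numbers are not taken to pair them. Counts of targets called by genotype in the border zone ran from 1 to 49, in perichondrium from 1 to 244, in space from 1 to 521, in reference cartilage from 3 to 2079 and in reference mesenchyme from 2 to 568, and for fusion minus GOF space from 1 to 885, minus GOF border from 0 to 230, minus GOF perichondrium from 0 to 285 and minus control space from 32 to 1007. The Matn3 to Matn4 border ratio moved from -1.07 to -0.99 with a pseudocount of 5 and to -1.14 with background subtracted. Depth limits Matn3 outside cartilage, where 28 of 33 space regions exceeded 3 times background, and 2 animals per group with 1 region per reference type limit every comparison.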
